A study of Mus musculus with 2 samples.

Results

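Krüppel-like factors are zinc finger transcription factors, and 10 of their genes are described here in undifferentiated and differentiated mouse embryonic stem cells: Klf2, Klf3, Klf4, Klf5, Klf6, Klf7, Klf9, Klf10, Klf13 and Klf15. The members were taken as every probe set that names one of these genes alone in the platform annotation, which gave 34 probe sets for 10 genes out of 18193 genes measured. Klf2, Klf4 and Klf5 (6 probe sets) were set against the other 7 members (28 probe sets).

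The cells were PGK12.1, a female mouse embryonic stem cell line derived from a blastocyst of a cross of a 129 female with a (129 X PGK)F1 male, at passages 14 to 18. One sample was undifferentiated (day 0), from cells kept with leukemia inhibitory factor (LIF) on embryonic fibroblast feeders and then freed of feeders on gelatin. The other was taken after 15 days of embryoid body differentiation, a protocol that yields aggregates of mixed cell types. Each condition was represented by 1 array of 1 line, so no value has a replicate error, no test between conditions is possible, and differences are described by size alone. The arrays were made to follow X-chromosome expression during differentiation. In such bulk RNA, fewer cells that express a gene and less RNA per cell cannot be told apart.

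Krüppel-like factors bind GC-rich and CACCC-type DNA through zinc fingers at the carboxyl end of the protein, while their amino-terminal parts differ and recruit activators or repressors. In mouse embryonic stem cells Klf2, Klf4 and Klf5 are known to support self-renewal with overlapping functions, and Klf4 lies downstream of LIF and STAT3. Several other members are known from differentiated tissues such as muscle, fat, liver and nerve.

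Among the stem cell factors, Klf2 alone was at least 2-fold lower at day 15, and among the other members Klf6 and Klf7 were at least 2-fold higher. The remaining 7 genes lay within 2-fold, with Klf4 and Klf5 below their undifferentiated signal and Klf3 at the threshold on its brightest probe set. Each gene is represented by its brightest probe set, meaning the one whose log2 signal, averaged over the arrays, was highest. The log2 difference is log2(signal + 16) at day 15 minus that in undifferentiated cells, and 2-fold calls use this scale, which understates the differences of dim probe sets. The 2 genes at least 2-fold higher stand beside 12.8% of all 18193 genes, and the 1 gene at least 2-fold lower beside 7.56%. With so few members these counts say nothing particular to the family.

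The median log2 difference was -0.90 over Klf2, Klf4 and Klf5 and 0.60 over the other 7 members, against -0.02 over all genes. The gap between the medians was -1.50. It narrowed to -0.39, and the median of the 7 turned to -0.51, when Klf3 was represented by its second brightest probe set, a choice made after its values were seen. With the mean over probe sets the gap was -0.81.

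**Figure D1:**
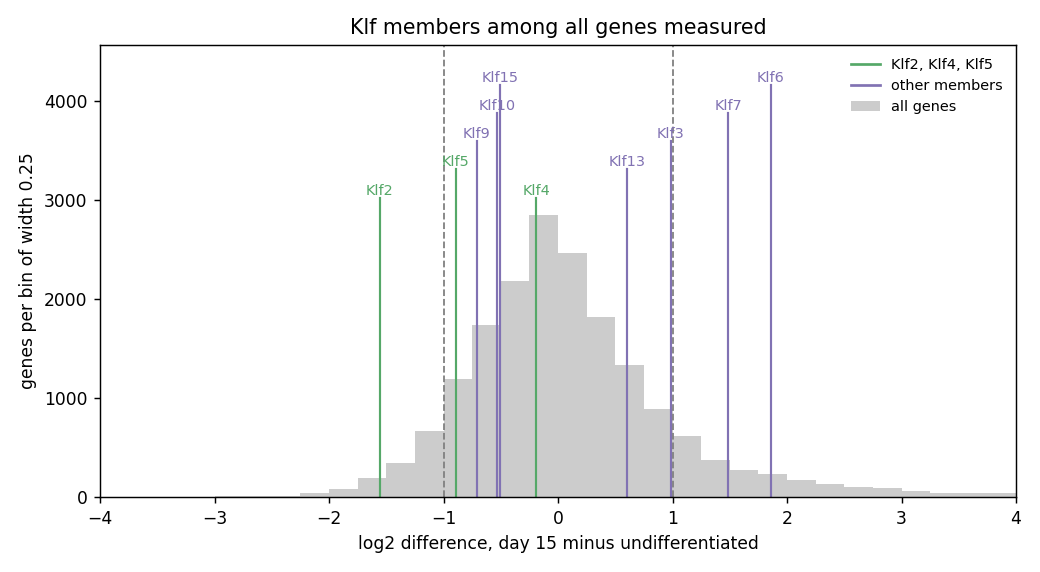
Log2 difference (day 15 minus undifferentiated) of the 10 Klf genes, as vertical lines with names, over a histogram of all 18193 genes in bins of width 0.25. The height of a line carries no value, dashed lines mark 2-fold, and 137 genes at or above a log2 difference of 4 lie outside the plot. Klf2 at -1.56 and Klf6 at 1.86 are the outermost members.

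The promoters of Klf2 and Klf4, a stem cell factor past 2-fold and one near its starting signal, and of Klf6 and Klf7, the members past 2-fold upward, are shown because the text turns on these genes. Each sequence is the 250 bases before the annotated start, 5′ to 3′ on the gene's strand, from RefSeq on GRCm38.p6. Capitals mark matches on either strand to GGGNGNGG, a GC-rich element of the kind these factors bind, with overlapping matches counted separately.
Klf2 (chr8:72318812-72319061, plus strand): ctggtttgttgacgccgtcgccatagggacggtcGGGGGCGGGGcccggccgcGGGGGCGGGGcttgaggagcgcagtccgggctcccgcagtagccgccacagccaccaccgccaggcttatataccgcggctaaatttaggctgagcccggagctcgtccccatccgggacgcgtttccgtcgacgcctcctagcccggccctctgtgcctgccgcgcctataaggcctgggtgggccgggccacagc
Klf4 (chr4:55532476-55532725, minus strand): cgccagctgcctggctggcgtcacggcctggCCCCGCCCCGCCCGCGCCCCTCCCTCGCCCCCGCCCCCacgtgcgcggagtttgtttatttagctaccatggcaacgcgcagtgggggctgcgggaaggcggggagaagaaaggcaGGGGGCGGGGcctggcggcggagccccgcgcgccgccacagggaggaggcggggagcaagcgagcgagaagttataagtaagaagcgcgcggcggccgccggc
Klf6 (chr13:5861239-5861488, plus strand): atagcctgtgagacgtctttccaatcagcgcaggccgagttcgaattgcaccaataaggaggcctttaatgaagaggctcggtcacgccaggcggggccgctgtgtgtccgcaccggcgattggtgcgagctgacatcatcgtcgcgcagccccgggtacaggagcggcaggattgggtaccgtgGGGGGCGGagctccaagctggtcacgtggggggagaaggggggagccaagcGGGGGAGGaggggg
Klf7 (chr1:64121390-64121639, minus strand): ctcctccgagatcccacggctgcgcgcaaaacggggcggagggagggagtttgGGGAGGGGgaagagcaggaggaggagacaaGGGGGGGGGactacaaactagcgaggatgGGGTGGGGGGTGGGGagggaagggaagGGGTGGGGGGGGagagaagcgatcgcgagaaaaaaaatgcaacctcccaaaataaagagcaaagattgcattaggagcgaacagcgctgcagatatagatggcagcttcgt

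Of the 10 members, 8 had a promoter in the sequence table (Klf2, Klf3, Klf4, Klf6, Klf7, Klf9, Klf13 and Klf15). GGGNGNGG matched in 7 of these 8, against 45.9% of 32851 promoter windows of equal length, and Klf9 had no match. Klf3 had 10 matches, Klf4 9, Klf7 8, Klf13 5, Klf2 4, Klf15 3 and Klf6 2. The counts did not follow the direction of the differences, since Klf6 and Klf7, both higher at day 15, lay near opposite ends. The element is itself made of guanines, and the 8 windows held 59.2% to 78.4% G and C against a median of 52.4% over all windows. The number of CpG dinucleotides in the 8 windows ran from 13 to 37, with a median of 6 over all windows.

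Other searched letters were shared less widely among these promoters. CCAAT, on either strand, occurred in 4 of 8 windows (Klf6 4 times, Klf9 3, Klf13 2, Klf15 1) and in 33.85% of all windows. The palindrome CACGTG occurred once in Klf4, once in Klf6 and 2 times in Klf15, and in 6.02% of all windows. TTCNNNGAA, the spacing bound by STAT factors, occurred in Klf9 alone, against 7.02% of all windows, and the CArG box of serum response factor in 0 of 8, against 1.47%. A match describes these letters and not a bound site, and a missing match holds for this window only.

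Klf2, a factor that helps hold stem cells in the naive state and is otherwise known from endothelium and lymphocytes, was lower at day 15 than before. Its single probe set (1448890_at) read 3338 in undifferentiated cells and 1125 at day 15. The signal at day 15 was 33.7% of the starting one, a 2.97-fold lower value and a log2 difference of -1.56. Of all genes, 1.68% had a lower log2 difference. With 1 probe set, no other sequence of the transcript checks this value. The difference stayed past 2-fold in all 7 settings applied to single genes, which include the reported one, from -1.94 to -1.43. With 1 probe set that has no suffix, the mean over probe sets and the omission of suffixes cannot differ from the reported value.

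Klf4, a reprogramming factor that is also known from epithelial differentiation, kept most of its signal. Its brightest probe set (1417394_at) read 3267 and 2859, so that 87.5% remained at day 15. The other (1417395_at) read 882 and 544, a 1.62-fold lower value. Both lay below their undifferentiated signal, with log2 differences of -0.19 and -0.68 that differ about as much as probe sets of 1 gene commonly do on these arrays (SD 0.53 over 5157 genes that have several probe sets above the array median). Quantile normalization brought the Klf4 difference to 0.01, so its direction depends on the scaling. The promoter of Klf4 printed above holds the CACGTG palindrome at the edge of its GC-rich stretch.

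Klf5, known from stem cells, trophectoderm and intestinal epithelium, had a difference between those of Klf2 and Klf4. The brightest probe set (1451021_a_at) read 2790 and 1492, a 1.87-fold lower value at day 15, with 53.5% of the signal remaining. A dimmer one (1451739_at) read 75.3 and 36.6, a 2.06-fold lower value that missed the call with a log2 difference of -0.80. The third (1430255_at) read 30.4 and 17.6, below 35.6, a level used here as the background bound after the data were seen. It is the highest signal of 15 bacterial control probe sets (Phe, Thr and Trpn), which were taken to have no target in these samples. No fold is given where both signals lie below that level. Klf5 missed the 2-fold call with a log2 difference of -0.90 and passed it at -1.28 when the arrays were centred on the hybridization controls, which lowers every log2 difference by 0.38. The 5 probe sets of Klf2, Klf4 and Klf5 above the array median were lower at day 15 on the deposited scaling. Of all 6, 1 was at least 2-fold lower on the log2 scale, beside 6.67% of the 34945 probe sets that name 1 gene.

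**Figure D2:**
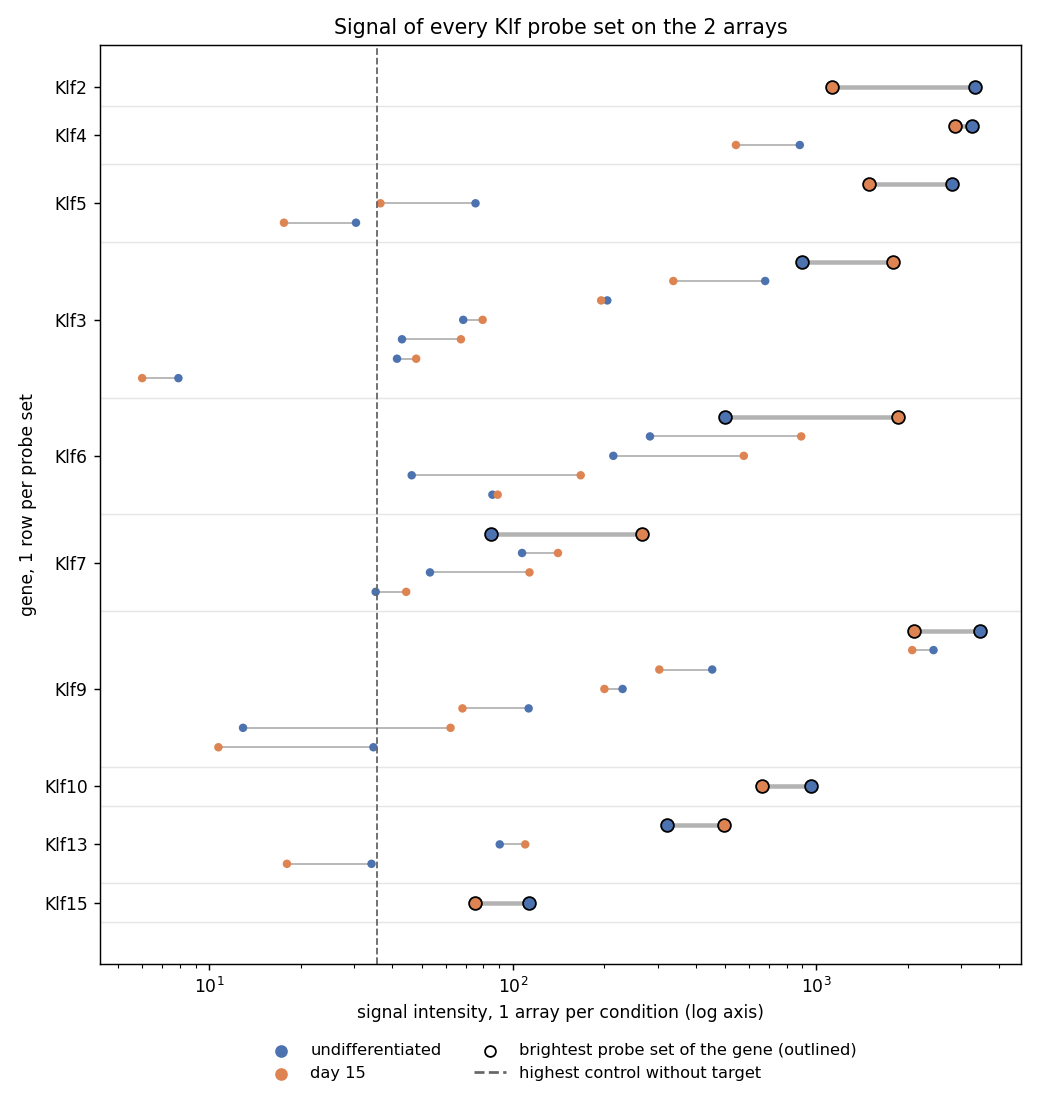
Signal intensity (log axis) of each of the 34 Klf probe sets on the undifferentiated array (blue) and the day 15 array (orange), 1 row per probe set, with the brightest probe set of each gene outlined. The dashed line is the highest control taken to have no target (35.6). The 5 rows of Klf2, Klf4 and Klf5 above that line run to lower signal at day 15, all rows of Klf6 and Klf7 run to higher signal, and the 2 brightest Klf3 rows run opposite ways.

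Klf6, a widely expressed factor that is induced early in wounding and is known to activate matrix and TGF-beta genes, had the largest gain of the members. Its brightest probe set (1433508_at) read 501 in undifferentiated cells and 1855 at day 15, a 3.70-fold higher value and a log2 difference of 1.86. Of all genes, 94.7% had a lower log2 difference. Another 3 probe sets gave like differences: 283 and 892 (3.15-fold), 214 and 577 (2.69-fold), and 46.4 and 167 (3.61-fold). The fifth (1427742_a_at) stood apart at 85.6 and 89.1, a log2 difference of 0.05 that quantile normalization and centring on the hybridization controls both turn below 0. Thus 4 of 5 Klf6 probe sets were past 2-fold upward, beside 12.2% of all probe sets that name 1 gene. The promoter of Klf6 printed above differs from those of Klf2 and Klf4 in holding 4 CCAAT letters.

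Klf7, known for its part in the growth of sensory and olfactory neurons and in fat cells, was also higher at day 15. Its brightest probe set (1449439_at) read 84.8 and 267, a 3.14-fold higher value and a log2 difference of 1.49. The other probe sets read 107 and 141, 53.3 and 113, and 35.3 and 44.5, with log2 differences of 0.35, 0.90 and 0.24. All 4 pointed upward on the deposited scaling, and those at 0.35 and 0.24 turn below 0 when the arrays are centred on the hybridization controls. The mean over the 4 was 0.74, so the 2-fold call of Klf7 rests on its brightest probe set. With that mean 1 member, Klf6, passed 2-fold upward, beside 10.0% of all genes. Among genes at or above the 75th percentile of brightness, a limit that leaves out Klf7 and Klf15, Klf6 was again the 1 member past 2-fold upward, beside 13.0%.

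Klf3, a repressor that works through CtBP and is known from red blood cells, B cells and fat, gave opposite answers from its 2 brightest probe sets. The brightest (1454666_at) read 895 and 1785, a log2 difference of 0.98. The next (1431630_a_at) read 678 and 338, a log2 difference of -0.97. These lie 1.96 apart on the log2 scale. The brightest passed the 2-fold call, at 1.04, with quantile normalization. Of the 5157 genes with several probe sets above the array median, 21.4% had their 2 brightest probe sets on opposite sides of 0, and 1.69% (87 genes) had them at least as far apart as Klf3. The third Klf3 probe set read 205 and 195, and 3 dimmer ones read 68.6 and 79.5, 43.1 and 67.4, and 41.5 and 48.0. The last (1458487_at) read 7.9 and 6.0, below the control level. The mean over all 7 was 0.09, so no single direction describes Klf3.

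**Figure D3:**
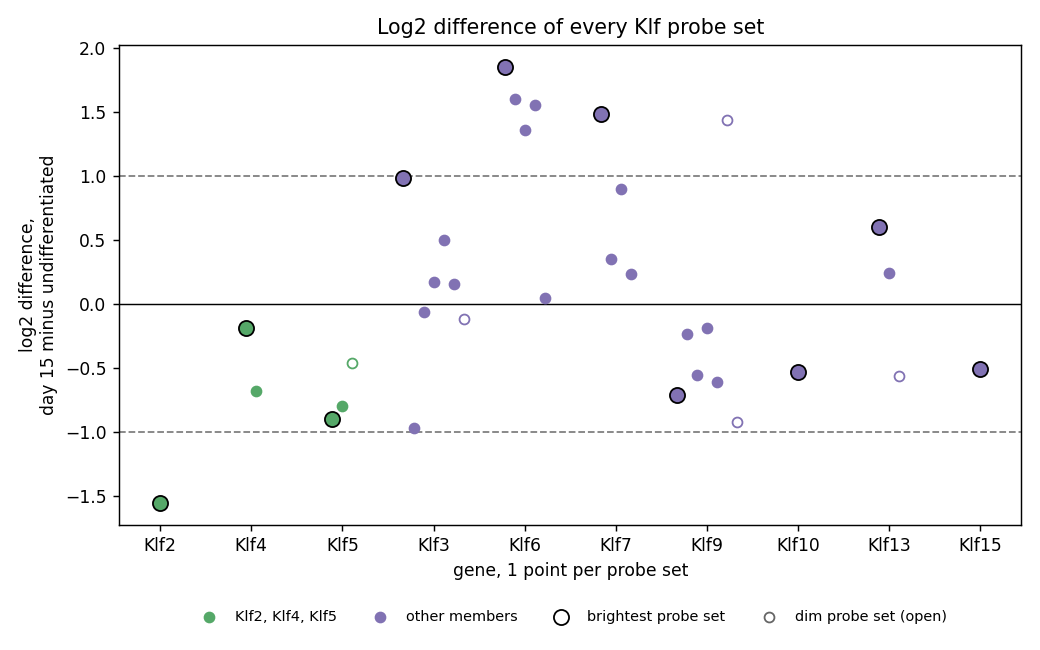
Log2 difference (day 15 minus undifferentiated) of each Klf probe set, grouped by gene, with the brightest probe set of a gene outlined and larger, and open points for probe sets below the median brightness of the arrays. Dashed lines mark 2-fold. The Klf3 points span -0.97 to 0.98, 4 of 5 Klf6 points lie above 1, and only Klf2 lies below -1.

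Klf9, Klf10 and Klf15, which respond to hormones, TGF-beta and metabolic state, were lower at day 15 by less than 2-fold. Klf9, a target of glucocorticoid and thyroid hormone, read 3453 and 2105 on its brightest probe set (1428288_at), a 1.64-fold lower value. Another bright Klf9 probe set (1456341_a_at) read 2434 and 2071, and the next 3 read 454 and 304, 229.9 and 200.3, and 113 and 68.2. All 5 Klf9 probe sets above the array median were therefore lower, with log2 differences from -0.71 to -0.19. The 2 dim ones read 34.7 and 10.7, which lie below the control level, and 12.9 and 62.3, at least 1.75-fold higher. Klf9 passed 2-fold, at -1.09, with centring on the hybridization controls. In that setting 3 members, Klf2, Klf5 and Klf9, passed 2-fold downward, beside 18.6% of all genes.

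Klf10, first known as a TGF-beta-inducible early gene, read 964 and 661 on its single probe set (1416029_at), a 1.46-fold lower value. Klf15, known from heart and skeletal muscle, liver and fat as a regulator of metabolism, read 113 and 74.9 on its single probe set (1448181_at), a 1.51-fold lower value. Their log2 differences, -0.53 and -0.51, are about as large as the SD between probe sets of 1 gene. Neither passed 2-fold in any of the 7 settings, which include the reported one. With 1 probe set each, the mean over probe sets and the omission of suffixes cannot differ from the reported values.

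Klf13, known from heart development and T cells, was higher at day 15 by less than 2-fold. Its brightest probe set (1436316_at) read 321 and 496, a 1.54-fold higher value and a log2 difference of 0.60. The second read 90.5 and 109.8 (0.24, which quantile normalization and centring on the hybridization controls both turn below 0). The third read 34.2 and 18.0, below the control level. Klf13 at 0.60 is also the value that sets the median of the 7 members.

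Over all 10 genes, 6 were lower at day 15 and 4 higher, with a median log2 difference of -0.35, and 51.4% of all genes were lower. Counted by probe set, 18 were lower and 16 higher, and 6 of 34 passed 2-fold upward on the log2 scale: 4 of Klf6, 1 of Klf7 and the dim one of Klf9, whose fold against the control level is bounded only at 1.75. Of the 34 probe sets, 29 lay above the median brightness of the arrays and 4 lay below the control level on both arrays. Among probe sets above that median brightness, Klf3 alone had both directions.

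**Figure D4:**
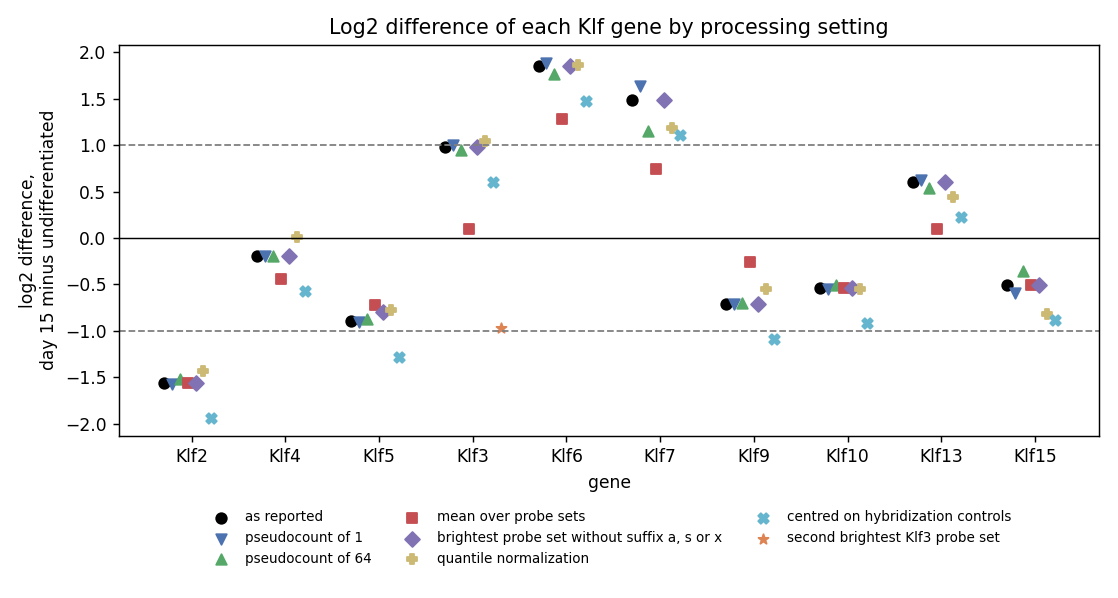
Log2 difference (day 15 minus undifferentiated) of each Klf gene as reported (black circles) and under each alternative processing setting, named in the legend. Dashed lines mark 2-fold. Klf2 stays below -1 and Klf6 above 1 in all 7 of their settings, Klf7 drops to 0.74 with the mean over probe sets, Klf4 reaches 0.01 with quantile normalization, and Klf3 ranges from -0.97 to 1.04. For Klf2, Klf10 and Klf15, with 1 probe set each, the mean over probe sets and the omission of suffixes repeat the reported value.

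Of the family members outside the 10, 6 of 7 listed genes had a probe set of their own (Klf1, Klf11, Klf12, Klf14, Klf16 and Klf17). None passed 2-fold on the deposited scaling and all 6 had negative differences, with a median of -0.35. Klf11, a repressor close to Klf10, had the largest difference, at 252 and 139.6 (1.81-fold lower), and it passed 2-fold with quantile normalization and with centring on the hybridization controls. Klf16 read 606 and 476. Klf12 read 171 and 140.5 on its brightest probe set and 115.5 and 196.5 on the next, in the opposite direction. The red cell factor Klf1 (49.4 and 31.1), Klf14 (44.4 and 31.0) and Klf17 (33.9 and 31.6) lay near or below the control level at day 15.

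The related Sp factors, which share the zinc finger block and bind the same GC-rich letters, included 1 gene past 2-fold. Of 7 measured, Sp5, a Wnt target, passed 2-fold downward (120.2 and 37.7), with its day 15 signal close to the control level of 35.6. Among all genes 7.56% passed 2-fold downward. Sp1 read 2728 and 1748 and Sp3 read 1194 and 1479.9, both within 2-fold. The median of the list was 0.31, and -0.07 with centring on the hybridization controls.

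The stem cell partners of Klf2, Klf4 and Klf5 were lower at day 15 by their brightest probe sets. Of 12 pluripotency factors, 8 passed 2-fold downward, beside 7.56% of all genes, and 0 upward, with a median log2 difference of -1.21. Those past 2-fold downward numbered 7 with quantile normalization and 11 with centring on the hybridization controls. Another Tbx3 probe set above the array median lay at 0.53, and another of Sall4 at -0.60. Gbx2 read 583 and 136, Sall4 4799.8 and 1367, Nr5a2 715 and 207, and Pou5f1, the gene of OCT4, 7838 and 2932. The median of these partners was -1.21, the difference of Klf2 was -1.56, that of Klf5 -0.90 and that of Klf4 -0.19.

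The LIF and STAT3 pathway, upstream of Klf4, was mixed. Of 7 genes, Jak2, a kinase gene, was 3.97-fold higher (66.1 and 262) and Socs3, the feedback inhibitor that STAT3 induces, was 2.27-fold lower (1693 and 745). These stand beside 12.8% of all genes at least 2-fold higher and 7.56% at least 2-fold lower. Stat3 itself read 826 and 669, and the receptor genes Lifr (802 and 972) and Il6st (419 and 559.6) lay within 2-fold. Probe sets above the array median ran from -0.30 to 0.53 for Stat3 and from -0.24 to 0.49 for Il6st, so neither has a single direction. The median of the list was 0.40, close to 0 (0.02) with centring on the hybridization controls.

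Most genes for partners and regulators of the proteins lay within 2-fold. Of 9 cofactor genes, Sin3a, the scaffold of a deacetylase complex, was 2.11-fold lower (1431 and 679), beside 7.56% of all genes at least 2-fold lower. The other 8 lay within 2-fold, among them Ctbp1 (1609.8 and 2124) and Ctbp2 (4749 and 4003), the partners of Klf3. By their brightest probe sets 8 of the 9 lay below 0, with a median of -0.25. With centring on the hybridization controls 2 cofactor genes passed 2-fold downward, beside 18.6% of all genes, and the median was -0.63. Of 6 ubiquitin ligase genes that act on Krüppel-like factor proteins, 0 passed 2-fold on the deposited scaling. Smurf1 came nearest (191 and 384, log2 difference 0.95), followed by Vhl (185 and 320.0), whose other probe set above the array median lay at -0.09. The median of the 6 was 0.27, and -0.11 with centring on the hybridization controls.

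Klf6 and Klf10 are themselves early response genes, and other such genes were higher at day 15 in part. Of 12 immediate-early and serum response genes, 6 passed 2-fold upward, beside 12.8% of all genes, and 0 downward, beside 7.56%. Their median was 1.09. With centring on the hybridization controls 5 passed 2-fold upward, beside 8.23% of all genes, and the median was 0.71. Fos read 129 and 2060, Jun 136 and 1206, Egr1 549 and 3694, and Ier3 175.5 and 989. Myc (702 and 612), Ier2 (2010.1 and 1812) and Klf10 lay within 2-fold.

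The TGF-beta pathway genes, known to act upstream of Klf10, were in part higher at day 15, while Klf10 was lower by less than 2-fold. Of 8 measured, 5 passed 2-fold upward, beside 12.8% of all genes, and 0 downward, beside 7.56%. Their median was 1.53. With centring on the hybridization controls 5 still passed 2-fold upward, beside 8.23% of all genes, and the median was 1.14. The receptor gene Tgfbr2 read 44.5 and 1532 (34.4-fold), and the ligand genes Tgfb2 (26.2 and 517.5, at least 14.5-fold), Tgfb3 (3.5 and 172, at least 4.83-fold) and Tgfb1 (192.5 and 611, 3.18-fold) were also higher. "At least" marks folds taken against the control level of 35.6.

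The glucocorticoid list, which bears on Klf9, Klf13 and Klf15, split. Of 7 genes, Tsc22d3, known as GILZ (28.5 and 246, at least 6.92-fold), and the receptor gene Nr3c1 (199.6 and 737, 3.69-fold) were higher, while Sgk1 (4563 and 921, 4.96-fold) and Fkbp5 (1179 and 433, 2.72-fold) were lower. Of all genes, 12.8% were at least 2-fold higher and 7.56% at least 2-fold lower. The median of the list was -0.38, and it was -0.70 with quantile normalization and -0.77 with centring on the hybridization controls. With that centring 3 of the 7 were at least 2-fold lower, beside 18.6% of all genes.

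**Figure D5:**
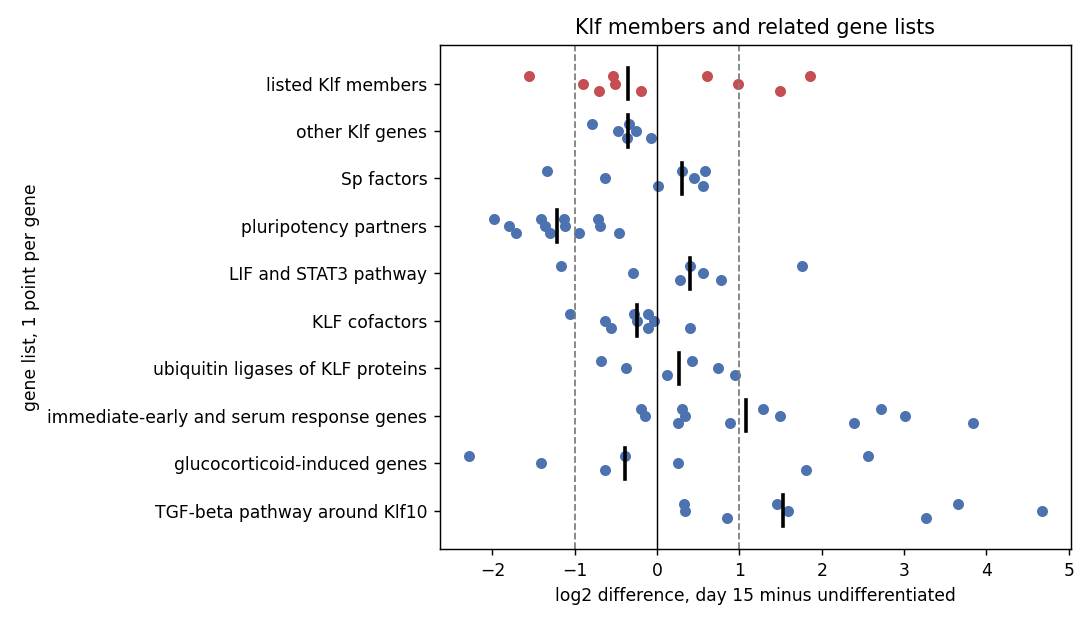
Log2 difference (day 15 minus undifferentiated) of each gene of the 10 Klf members (red) and of 9 related gene lists (blue), with a black bar at the median of each list and dashed lines at 2-fold. Each gene is shown by its brightest probe set, and the vertical offsets within a row only separate points. The pluripotency partners lie wholly below 0, the TGF-beta genes above it (centring on the hybridization controls would take the lowest of them below 0), and the Klf members on both sides.

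Fibroblast and smooth muscle markers differed most between the arrays among the 6 marker lists of other cell types, by their medians (6.23 and 4.42), while most endothelial and erythroid markers lay within 2-fold. Of 8 fibroblast markers, 7 passed 2-fold upward, and the summed signal of the 8 was 359 before and 31791 after. Col1a1 (17.2), Lum (10.2), Postn (25.6) and Pdgfrb (29.4) read below the control level before. Thy1, the 1 fibroblast marker within 2-fold, read 143.5 and 144.5. Of 6 smooth muscle markers, 5 passed 2-fold upward (sums of the 6, 1231 and 28919), of which Cnn1 (31.3) and Actg2 (15.9) read below the control level before. Myh11, the 1 smooth muscle marker within 2-fold, read 19.1 and 26.3, below the control level on both arrays. Klf6 and Klf7 were past 2-fold upward on the same array, as were 12.8% of all genes. With 1 difference per gene no link between them and these markers can be seen, and none was tested. The epithelial list, which bears on Klf4 and Klf5, had Krt8, Krt18 and Krt19 at least 2-fold higher and Cdh1 and Epcam at least 2-fold lower (sums 7421 and 6966). With quantile normalization 1 gene of this list was at least 2-fold lower. The other Epcam probe set above the array median lay at -0.52. Of 7 endothelial markers, which bear on Klf2, 1 passed 2-fold upward on the log2 scale (Cdh5, 11.7 and 45.5, which against the control level gives at least 1.28-fold) and 1 downward (Pecam1, 234 and 106.5). Kdr read 50.8 and 105 (2.07-fold) and missed the call at 0.86, and the summed signal was 639 and 517. Of 5 erythroid markers, 1 was lower (Gata1) and 0 higher, with sums of 118 and 73.9. Of 6 hepatic and yolk sac markers, 3 were at least 2-fold higher (sums 84.9 and 1601). As a check of the labels, Pou5f1, Nanog (5470.4 and 2835) and Sox2 (6138 and 3729) were higher in the undifferentiated sample and still far above the control level at day 15.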

How the data were processed

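Biotinylated cRNA from total RNA was hybridised to Affymetrix mouse arrays, per the labels' protocols, and the authors deposited 1 linear signal intensity per probe set for 45101 probe sets on 2 arrays. The summarising software is not given in the sources used here. Deposited intensity values had equal means (250.0) on both arrays after trimming 2% from each tail, so they had been scaled. Array number limits the precision.

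After 64 controls were set aside, 34945 probe sets named 1 gene in the platform annotation, 932 several and 9160 none. Symbols were updated through the RefSeq table of GRCm38.p6 (34741 by gene identifier, 143 by symbol, 61 unmatched). With 1 array per condition no test was run. Genes were called at 2-fold on log2(signal + 16) by their brightest probe set, with no filter on brightness. Alternatives were pseudocounts of 1 and 64, the mean over probe sets, leaving out suffixes a, s and x, quantile normalization, centring on 18 hybridization controls, filters at the median and 75th percentile, and counting probe sets. Named genes were all members with all probe sets, every other measured Klf gene, and up to 4 genes of each list with the largest difference. Ctbp1, Ctbp2, Sp1, Sp3, Stat3, Lifr, Il6st, Myc, Ier2, Nanog and Sox2 were named in addition, for their roles. The members and lists were chosen with earlier results of these data known. The calling and scaling functions were tested on simulated data. Analysis used Python 3.11.15, pandas 2.3.3 and numpy 2.4.6.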

Additional observations from a re-analysis of the deposited data

How the results depend on the processing

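Of 61 alternative values of single Klf genes, 57 moved by less than 0.53, the SD between probe sets of 1 gene, and 4 moved further: Klf3 (0.09), Klf6 (1.29) and Klf7 (0.74) with the mean over probe sets, and Klf3 (-0.97) with its second brightest probe set. Part of the 57 could not have moved further, so their number does not measure robustness. Klf2, Klf10 and Klf15 have 1 probe set each, and their mean over probe sets is the reported value. Leaving out suffixes changed Klf5 alone, and centring on the hybridization controls lowers every difference by 0.38, less than that SD. Klf3 and Klf4 changed sign in some setting. The gap between the medians was -0.81 with the mean over probe sets, -0.90 with each probe set counted on its own, and -0.39 with the second brightest Klf3 probe set, where the median of the other members was -0.51. The members at least 2-fold higher numbered 1 with the mean over probe sets, 1 (of 8 left, without Klf7 and Klf15) with the 75th percentile filter, and 6 of 34 when probe sets were counted, of which a dim one of Klf9 has a fold bounded only at 1.75 against the control level. The members at least 2-fold lower numbered 3 (Klf2, Klf5 and Klf9) with centring on the hybridization controls, where 18.6% of all genes were. Other settings kept counts within 1.5 times and signs of the medians. The filter at the array median left all 10 members in. No paired analysis was possible because each condition had 1 array. No array could be left out. Signals near 35.6 cannot be told from those of control probe sets taken to have no target.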
